A study of Mus musculus with 12 samples.

Results

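Chemokines are small secreted or membrane-bound proteins that guide the movement of immune cells, and their receptors are G protein-coupled receptors. The genes described here are the protein-coding genes whose GRCm38 symbol is Ccl, Ccr, Cxcl, Cxcr, Xcr or Ackr followed directly by a number, plus Cx3cl1, which encodes fractalkine. The receptor gene Cx3cr1 falls outside this naming and was treated as a pathway gene outside the set. Of the 50563 genes of the count table, 58 met the rule: 36 ligands, 18 receptors and 4 atypical receptors, which bind chemokines without G protein signaling. In total over all mice, 36 of the 58 reached 10 counts, 15 had between 1 and 9 counts, and 7 had none.

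RNA-Seq libraries were made from the cortex of 12 aged mice of the strain E4FAD (genotype APOE4+/+, 5FAD-/+), with 1 library per mouse. The CTRL group held 7 mice that received vehicle by oral gavage, 2 of them 12 months old and 5 of them 14 months old. The DPAn-6 group held 5 mice that received the omega-6 docosapentaenoic acid DPAn-6, as ethyl ester, at 700 mg/kg body weight daily for 3 weeks, 2 of them 12 months old and 3 of them 14 months old. Every mouse of both groups carried human APOE4 and the familial Alzheimer's disease transgenes and was given the antioxidants alpha-tocopherol and palmitoyl ascorbic acid, so no mouse without the transgenes entered the comparison. The comparison asks whether the mRNA of these genes differed in the cortex of DPAn-6-treated mice. By the study's methods, CTRL held 4 females and 3 males and DPAn-6 held 3 females and 2 males. Sex is not labelled for single mice.

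Each library held 15339098 to 19500154 counts in CTRL and 15208803 to 26520251 in DPAn-6. CTRL replicate 3 stood apart: the chi-square per degree of freedom of its counts against the other CTRL mice was 58.5 to 106, while it was 7.36 to 38.8 among the other CTRL mice and 4.93 to 10.95 among DPAn-6 mice. The choroid plexus gene Ttr also differed widely between CTRL mice, from 2.59 to 10.58 log2 CPM (the log2 of the count scaled to a common library total), against 0.87 to 3.88 in DPAn-6 mice. Markers of cortical excitatory neurons were present in every mouse (Slc17a7, 10.25 to 10.99 log2 CPM over both groups).

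Chemokine ligands fall into families named for the spacing of their conserved cysteines (CC, CXC, XC and CX3C), and most bind receptors of the family of the same name. In the brain, CX3CL1 is made mainly by neurons and its receptor CX3CR1 mainly by microglia, while CXCL12 with CXCR4 is known for guiding migrating cells during development. In mouse models with amyloid deposits, microglia near plaques are known to express CC chemokines such as CCL3, CCL4 and CCL6.

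DPAn-6 mice had a higher level of Cx3cl1 mRNA, by 1.31-fold, and it was the only one of the genes tested whose adjusted p passed 0.05. The CC ligands Ccl6, Ccl3 and Ccl28 and the CXC ligand Cxcl16 had lower means in DPAn-6 mice, and the CXC ligand Cxcl5 had a higher mean, all at an unadjusted p below 0.05 with adjusted p-values of 0.0917 or more. Cxcl13, too low for edgeR's filter on low counts, had 87 counts in the 7 CTRL mice and 2 counts in the 5 DPAn-6 mice.

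EdgeR's filter kept 19 of the 58 genes (14 of them ligands) among 15688 genes in all. By edgeR's quasi-likelihood test with Benjamini-Hochberg adjustment over all genes tested, 1 of the 19 had an adjusted p below 0.05, beside 1.55% of all genes tested. In that test 1 was higher in DPAn-6 mice, beside 0.408% of all genes, and 0 were lower, beside 1.14%. At an unadjusted p below 0.05, 5 of the 19 were lower in DPAn-6 mice, beside 9.02% of all genes tested, and 2 were higher, beside 5.51%. The log2 fold change was below 0 in 14 of the 19 genes, beside 51.3% of all genes, and its median was −0.13 for the 19 genes and −0.00 for all genes tested. The groups did not overlap for 1 of the 19 with DPAn-6 higher (1.73% of all genes) and for 0 with DPAn-6 lower (1.49%). By exact permutation of the mice, 6 of the 19 had a p below 0.05, beside 15.8% of all genes.

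**Figure D1:**
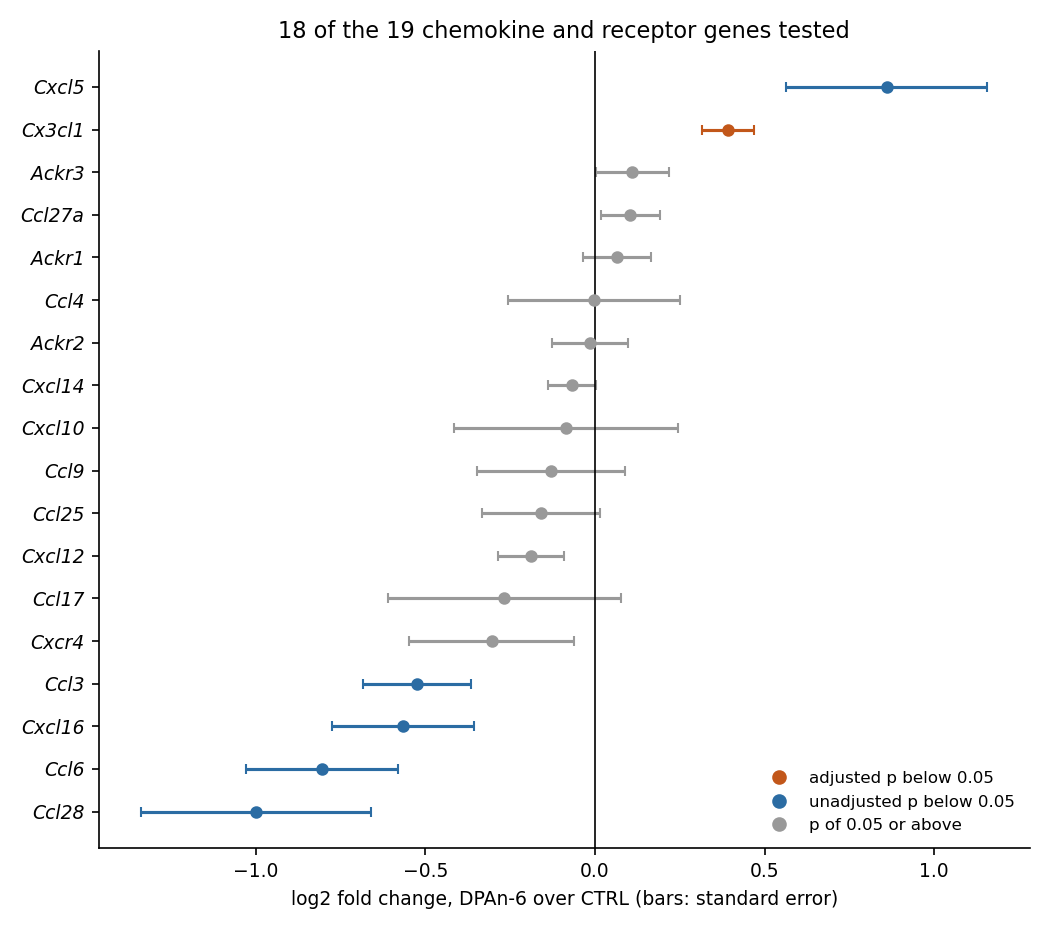
Log2 fold change of 18 of the 19 genes that passed the filter, DPAn-6 over CTRL, with bars of 1 standard error from edgeR's quasi-likelihood test; the color gives the p-value class. Ccl28 lies lowest at −0.999 and Cxcl5 highest at 0.86, and Cx3cl1, at 0.39, is the only one of the 19 genes whose adjusted p is below 0.05.

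Cx3cl1 (ENSMUSG00000031778; GRCm38 chromosome 8, 94772009 to 94782427) encodes fractalkine, a transmembrane ligand that can be shed by ADAM10 and ADAM17. Its level in CTRL mice was 9.13 log2 CPM at the lowest, 9.58 at the median and 9.70 at the highest. The DPAn-6 values were 10.05, 9.90, 9.99, 9.86 and 9.97 log2 CPM, and the counts behind both groups were 8623 to 26599. All 5 DPAn-6 mice lay above every CTRL mouse, and CTRL replicate 3 was the lowest of all. The CTRL mean was 9.53 ± 0.18 log2 CPM (SD, n = 7), and the DPAn-6 mean was 9.95 ± 0.07 (SD, n = 5), with a two-sided exact permutation p of 0.00126, the smallest these groups allow. By edgeR's quasi-likelihood test the log2 fold change was 0.39 (standard error 0.08, adjusted p = 0.0193). Without CTRL replicate 3 it was 0.34, and edgeR's adjusted p was 0.000732. Without DPAn-6 replicate 1, 3 or 5, the adjusted p by edgeR was 0.0578, 0.0683 or 0.0520. With Ttr as covariate edgeR gave 0.36 (adjusted p = 0.339), and among the 14-month mice alone 0.45 (adjusted p = 0.240).

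The promoter of Cx3cl1, the gene whose mRNA rose, is given from RefSeq (GRCm38.p6, plus strand, chr8:94771930-94772229), from 250 bases before to 50 bases after the annotated start site. The capitals mark GGGCGG, the box bound by SP1 family factors, 27 bases before the start site, and TATAAA, 6 bases before it.
Cx3cl1: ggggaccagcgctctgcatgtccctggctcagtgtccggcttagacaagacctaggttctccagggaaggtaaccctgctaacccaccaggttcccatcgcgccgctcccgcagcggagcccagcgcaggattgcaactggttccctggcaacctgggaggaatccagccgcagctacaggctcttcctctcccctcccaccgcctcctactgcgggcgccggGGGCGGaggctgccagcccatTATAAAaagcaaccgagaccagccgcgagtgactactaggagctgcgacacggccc
Among 32851 such windows of 300 bases, searched on both strands, 35.7% held GGGCGG and 13.6% held TATAAA. RefSeq gave windows for 44 of the 58 genes, 51 windows in all, of which 11 held GGGCGG and 15 held TATAAA. A match is a stretch of letters only, and binding at it was not measured.

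The receptor of fractalkine, Cx3cr1 (ENSMUSG00000052336; chromosome 9, 119901616 to 120069879), had 6.36, 6.68 and 6.95 log2 CPM as the lowest, median and highest CTRL values. In DPAn-6 mice it had 6.62, 6.87, 6.42, 6.65 and 6.68 log2 CPM, all within the range of CTRL. For Cx3cr1 the log2 fold change was −0.05 (standard error 0.10, edgeR's adjusted p = 0.866), with a 95% interval from −0.27 to 0.17 on 10 degrees of freedom. The difference between ligand and receptor within a mouse, log2 CPM of Cx3cl1 minus that of Cx3cr1, was 2.86 ± 0.19 (SD) in the 7 CTRL mice and 3.30 ± 0.21 (SD) in the 5 DPAn-6 mice. In CTRL it ranged from 2.62 to 3.11, and in DPAn-6 mice it was 3.42, 3.03, 3.57, 3.21 and 3.29, so the groups overlapped. The groups differed by 0.45, with an exact permutation p of 0.00505 and of 0.0303 adjusted over the 6 pairs of genes compared in this way, which were chosen after the values were seen. This difference holds the rise of Cx3cl1 itself and is no separate evidence for it.

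Cx3cl1 made up most of the counts on the 58 genes. Its share was 62.7% to 71.4% in CTRL mice and 73.9% to 76.9% in DPAn-6 mice. The 58 genes together held 0.0896% to 0.117% of all counts in CTRL libraries and 0.126% to 0.138% in DPAn-6 libraries. In both measures all DPAn-6 mice lay above all CTRL mice, and Cx3cl1 itself is most of what both count.

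**Figure D2:**
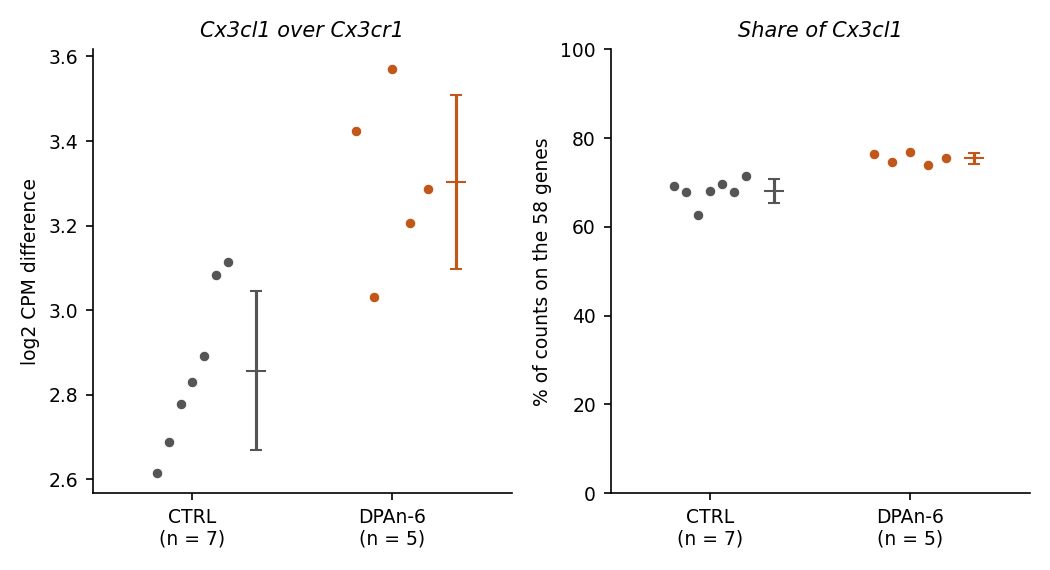
Left, log2 CPM of Cx3cl1 minus log2 CPM of Cx3cr1 in each mouse; right, Cx3cl1 counts as percent of all counts on the 58 genes; points are mice, and the bars beside them give the mean ± SD for 7 CTRL and 5 DPAn-6 mice. The left values run from 2.62 to 3.11 in CTRL and from 3.03 to 3.57 in DPAn-6, and the shares on the right do not overlap.

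Among the CC ligands, Ccl6 (ENSMUSG00000018927; chromosome 11, 83587882 to 83593087), a chemokine of myeloid cells, had 2.82, 3.73 and 4.50 log2 CPM as the lowest, median and highest CTRL values. Its DPAn-6 values were 2.90, 3.03, 2.76, 3.27 and 2.95 log2 CPM, and each library held 110 to 395 of its counts. Each DPAn-6 value was under the mean of CTRL, 3.68 ± 0.55 (SD, n = 7), but only DPAn-6 replicate 3 was below every CTRL mouse, since CTRL replicate 2 was low. EdgeR's log2 fold change was −0.80 (standard error 0.22, unadjusted p = 0.00262, adjusted p = 0.0917 by edgeR's quasi-likelihood test), and the exact permutation p was 0.0265. Over the 25 alternative settings the adjusted p of Ccl6 ran from 0.0114 to 0.376 and was below 0.05 in 5 of them. It was 0.0152 by DESeq2, 0.0114 by limma-voom with sample weights and 0.129 by limma-voom without them. By edgeR it was 0.0373 without CTRL replicate 2, 0.0347 without CTRL replicate 3, 0.244 without DPAn-6 replicate 3 and 0.358 with Ttr as covariate.

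Ccl3 (ENSMUSG00000000982; chromosome 11, 83647844 to 83649355) encodes MIP-1α, which binds the receptor CCR1. Its CTRL values were 2.21 log2 CPM at the lowest, 2.73 at the median and 3.04 at the highest, with CTRL replicate 3 highest. Its DPAn-6 values were 2.09, 2.48, 2.04, 1.79 and 2.24 log2 CPM, 3 of them below every CTRL mouse. The groups overlapped through DPAn-6 replicates 2 and 5. The log2 fold change was −0.52 (standard error 0.16, adjusted p = 0.123 by edgeR's quasi-likelihood test; exact permutation p = 0.0152). In the 14-month mice only it was −0.39, with an unadjusted p of 0.0969 by edgeR, and the adjusted p of Ccl3 ran from 0.0428, by DESeq2, to 0.753 over the 25 alternatives.

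The promoters of Ccl3 and Ccl6, neighbours on chromosome 11 with the lowest edgeR p-values among the genes with lower means, are given from RefSeq (GRCm38.p6, minus strand, chr11:83649329-83649628 and chr11:83593038-83593337). The capitals mark TTNNGNAAT, a motif of C/EBP factors, 100 bases before the start site in Ccl3. In Ccl6 they mark CAGGAAG, read on the other strand as CTTCCTG, 73 and 47 bases before the start site, a motif spelled after its repeat in this window was seen.
Ccl3: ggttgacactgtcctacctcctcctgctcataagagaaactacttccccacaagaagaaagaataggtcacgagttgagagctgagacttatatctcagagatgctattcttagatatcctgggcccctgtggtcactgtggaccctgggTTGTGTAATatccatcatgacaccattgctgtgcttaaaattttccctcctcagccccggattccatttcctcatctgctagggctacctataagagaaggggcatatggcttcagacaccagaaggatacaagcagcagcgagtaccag
Ccl6: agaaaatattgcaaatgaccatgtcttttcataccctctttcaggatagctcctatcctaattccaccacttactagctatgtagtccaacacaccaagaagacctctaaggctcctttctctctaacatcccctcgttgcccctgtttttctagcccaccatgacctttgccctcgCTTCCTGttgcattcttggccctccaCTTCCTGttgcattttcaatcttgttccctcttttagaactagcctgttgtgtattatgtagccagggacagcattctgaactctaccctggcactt
TTNNGNAAT stood in 11.5% of all promoter windows on either strand and in 8 of the 51 windows of chemokine genes, and CAGGAAG in 13.3% and in 12 of the 51. The windows of Ccl3 and Ccl6 held neither the AP-1 motif TGANTCA (7.81% of all windows, 10 of the 51) nor the NF-kB consensus (5.80% of all windows, 11 of the 51). The 11 genes with the NF-kB consensus were Ackr2, Ccl1, Ccl20, Ccl27a, Ccl9, Ccr3, Ccr6, Cxcl1, Cxcl10, Cxcl2 and Cxcl3, of which 4 passed the filter on low counts, and none of these 4 had an unadjusted p below 0.05.

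The neighbours of Ccl6 and Ccl3 on chromosome 11 gave other values. Ccl4, which encodes MIP-1β and lies 13228 bases from Ccl3, had −1.04, 0.08 and 0.55 log2 CPM as the lowest, median and highest CTRL values, and 0.35, −0.20, 0.11, 0.20 and 0.20 in DPAn-6 mice. All of its DPAn-6 values lay within the CTRL range, at 9 to 30 counts in each library. Ccl4 had a log2 fold change of −0.00 (standard error 0.25, edgeR's adjusted p = 0.998), and its 95% interval ran from −0.57 to 0.56, which holds the value of Ccl3. Within a mouse, log2 CPM of Ccl3 minus that of Ccl4 was 2.57 ± 0.42 (SD) in the 7 CTRL mice and 1.99 ± 0.42 (SD) in the 5 DPAn-6 mice, a difference of −0.58 with an exact permutation p of 0.0366 (0.110 adjusted over the 6 pairs). Ccl9, next to Ccl6, had a log2 fold change of −0.13 (standard error 0.22), and the difference of Ccl6 over Ccl9 between the groups was −0.61 with an exact permutation p of 0.0922.

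Ccl28 (ENSMUSG00000074715; chromosome 13, 119623819 to 119654359) encodes a chemokine known from mucosal epithelia. It had 1.04, 1.77 and 2.30 log2 CPM as the lowest, median and highest CTRL values and 1.43, −0.20, −0.67, 1.64 and 0.61 in DPAn-6 mice, at 12 to 91 counts in each library. The DPAn-6 mice split widely: replicates 2, 3 and 5 were below every CTRL mouse, and replicates 1 and 4 lay among them. Ccl28 had a log2 fold change of −0.999 (standard error 0.34, adjusted p = 0.169 by edgeR's quasi-likelihood test; exact permutation p = 0.0215). Over the 25 alternatives its adjusted p ran from 0.00639 to 0.603 and was below 0.05 in 1, limma-voom with sample weights, which gave −1.47. It was 0.101 by limma-voom without weights and 0.0740 by DESeq2. The remaining CC ligands that passed the filter, Ccl17, Ccl25 and Ccl27a, had log2 fold changes from −0.27 to 0.10 and unadjusted p-values of 0.253 or more by edgeR. Ccl27a, an epithelial chemokine, had 4.54, 4.66 and 4.86 log2 CPM as the lowest, median and highest CTRL values and 5.01, 4.59, 4.73, 4.67 and 4.95 in DPAn-6, with an interval of the difference from −0.09 to 0.30.

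**Figure D3:**
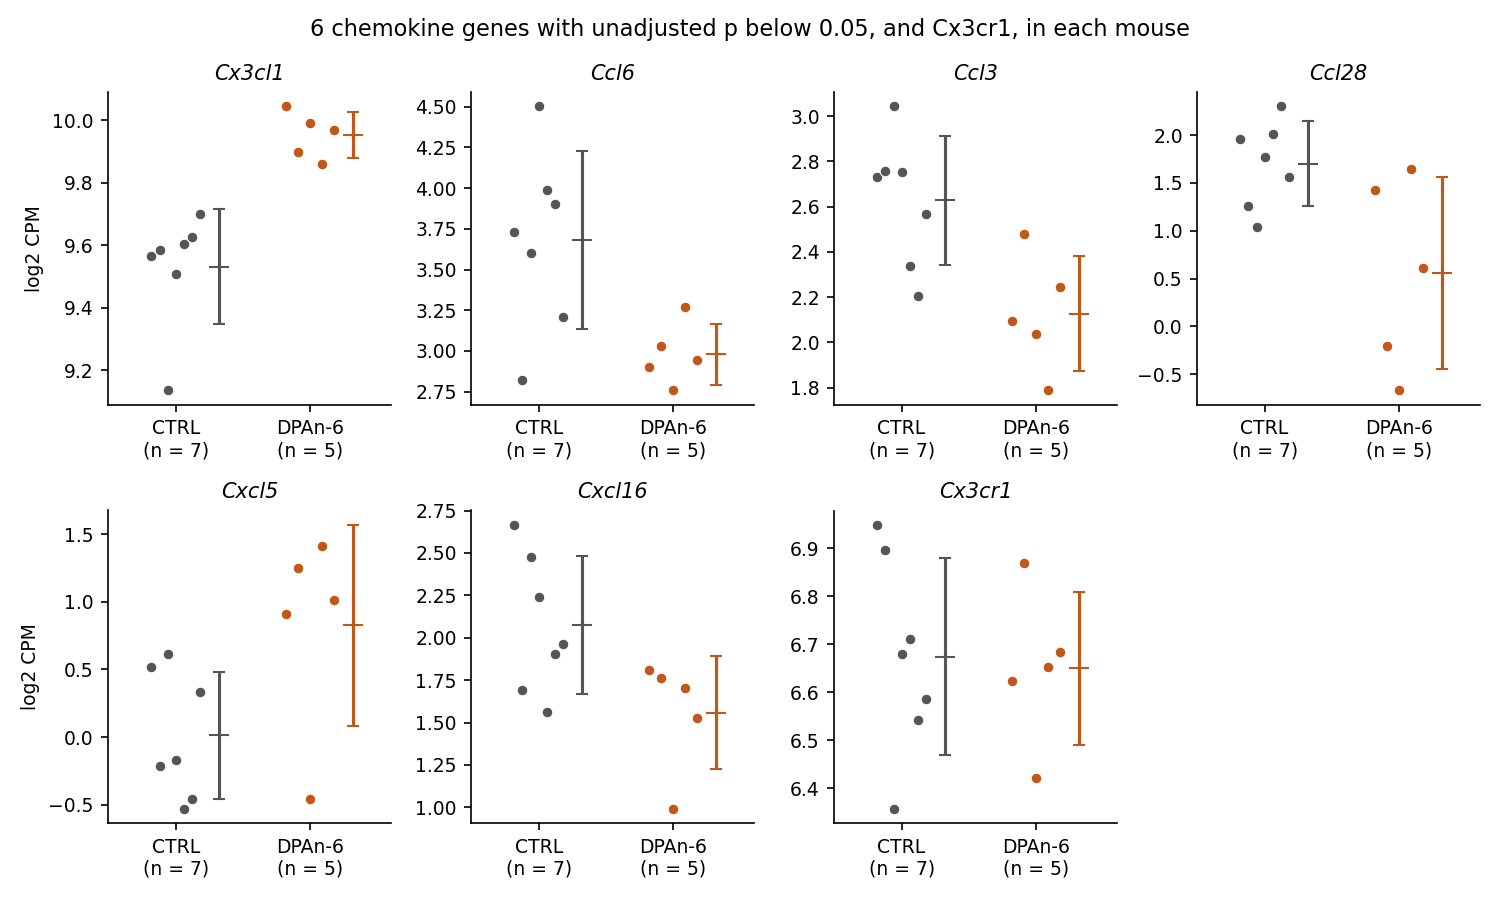
Log2 CPM in each mouse of 6 chemokine genes with an unadjusted edgeR p below 0.05 and of Cx3cr1; points are mice, and the bars beside them give the mean ± SD for 7 CTRL and 5 DPAn-6 mice, each panel with its own axis. The groups are apart for Cx3cl1 (CTRL up to 9.70, DPAn-6 from 9.86) and overlap in the other panels.

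Among the CXC ligands, Cxcl5 (ENSMUSG00000029371; chromosome 5, 90759360 to 90761624), which attracts neutrophils, was the other gene with a higher mean in DPAn-6 mice at an unadjusted p below 0.05. Its CTRL values were −0.53, −0.17 and 0.62 log2 CPM at the lowest, median and highest, and its DPAn-6 values were 0.91, 1.25, −0.46, 1.41 and 1.01. Of the 5 DPAn-6 mice, 4 were above every CTRL mouse, and DPAn-6 replicate 3 was near the bottom of the CTRL range. Each library held 13 to 53 of its counts, and the log2 fold change was 0.86 (standard error 0.30, adjusted p = 0.177 by edgeR's quasi-likelihood test; exact permutation p = 0.0455). With Ttr as covariate it was 0.63, with an unadjusted p of 0.143 by edgeR. Of the 7 neutrophil markers listed, 0 passed the filter on low counts, and their summed level was 0.172 to 7.30 CPM in CTRL and 0.0658 to 0.598 CPM in DPAn-6 mice.

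Cxcl16 (ENSMUSG00000018920; chromosome 11, 70453983 to 70459984) encodes a transmembrane ligand of CXCR6. Its CTRL values were 1.56, 1.96 and 2.67 log2 CPM at the lowest, median and highest, and its DPAn-6 values were 1.81, 1.76, 0.99, 1.70 and 1.53. Each DPAn-6 value was under the mean of CTRL, and replicates 3 and 5 were below every CTRL mouse. Cxcl16 had a log2 fold change of −0.57 (standard error 0.21, adjusted p = 0.211 by edgeR's quasi-likelihood test; exact permutation p = 0.0455), and edgeR's unadjusted p was 0.0530 without DPAn-6 replicate 3 and 0.181 in the 14-month mice only. Of its exon bases, 18.3% overlap exons of Zmynd15 on the opposite strand, a gene with 178 counts in all libraries. How strand was handled in the counting is not known, so it is also not known how reads on these shared bases entered the counts.

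Cxcl12 and Cxcl14 were the most abundant CXC ligands. Cxcl12, the ligand of CXCR4 and ACKR3, had 6.38, 6.65 and 7.04 log2 CPM as the lowest, median and highest CTRL values and 6.41, 6.65, 6.41, 6.48 and 6.50 in DPAn-6 mice, all within the CTRL range. For Cxcl12 the log2 fold change was −0.19 (standard error 0.10, unadjusted p = 0.0714 by edgeR), the interval running from −0.40 to 0.03. Its unadjusted p was below 0.05 in 5 of 25 alternative settings, among them 0.0254 without CTRL replicate 3. Cxcl14 had 6.74, 6.92 and 7.15 log2 CPM as the lowest, median and highest CTRL values and 6.96, 6.83, 6.88, 6.91 and 6.88 in DPAn-6 mice. Its groups overlapped, with a log2 fold change of −0.07 (standard error 0.07) and an interval from −0.22 to 0.09. Cxcl10, an interferon-induced ligand of CXCR3, had a log2 fold change of −0.09 (standard error 0.33), at 15 to 70 counts in each library.

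Among the receptors, Cxcr4, which binds CXCL12, had 0.68, 1.09 and 1.72 log2 CPM as the lowest, median and highest CTRL values and 0.73, 1.25, 0.52, 1.55 and 0.42 in DPAn-6 mice. Of the 5 DPAn-6 mice, 2 were below every CTRL mouse, giving a log2 fold change of −0.30 (standard error 0.24, unadjusted p = 0.230 by edgeR), with an interval from −0.85 to 0.24. Ackr3, an atypical receptor that takes up CXCL12, had 2.72, 3.07 and 3.35 log2 CPM as the lowest, median and highest CTRL values. Its DPAn-6 values were 3.41, 3.11, 3.18, 3.13 and 3.19 log2 CPM, with a log2 fold change of 0.11 (standard error 0.11) and an interval from −0.13 to 0.35. The difference of Cxcl12 over Cxcr4 between the groups was 0.12 (exact permutation p = 0.605), and that of Cxcl12 over Ackr3 was −0.29 (exact permutation p = 0.0972).

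Ackr1, an atypical receptor known from red blood cells and venules, had 4.55, 4.73 and 5.11 log2 CPM as the lowest, median and highest CTRL values and 4.75, 4.89, 4.95, 4.98 and 4.90 in DPAn-6 mice, all within the CTRL range. Ackr1 differed by 0.06 in log2 fold change (standard error 0.10), with an interval from −0.16 to 0.29. The level of Ackr1 is uncertain, because 25.7% of its exon bases are shared with exons of Cadm3 on the same strand, a gene with 120753 counts. Ackr2, an atypical receptor that takes up inflammatory CC chemokines, had a log2 fold change of −0.01 (standard error 0.11), with an interval from −0.26 to 0.24. Ackr4 had 22 counts in total and did not pass the filter.

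Per length of exon, the levels of the 19 genes, as RPKM (counts scaled to library total and exon length), spanned from a median of 206 RPKM for Cx3cl1 to 0.497 RPKM for Ccl9. Cx3cl1 was followed by Cxcl14 (65.5 RPKM), Ackr1 (21.03), Cxcl12 (11.5) and Ccl27a (10.7). The ranges over the 12 mice of Cx3cl1, Cxcl14 and Ackr1 did not overlap with those of the next gene in this order, whereas Cxcl12 and Ccl27a overlapped. Ccl3 (6.90 RPKM) and Ccl6 (5.24 RPKM) came next and overlapped each other. From Ackr3 (2.60 RPKM) down, each gene but Ackr3 overlapped with the next. The levels in DPAn-6 mice were 253 ± 12.9 RPKM (SD, n = 5) for Cx3cl1 against 190 ± 22.1 (SD, n = 7) in CTRL, and 4.41 ± 0.593 against 7.56 ± 2.81 for Ccl6.

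**Figure D4:**
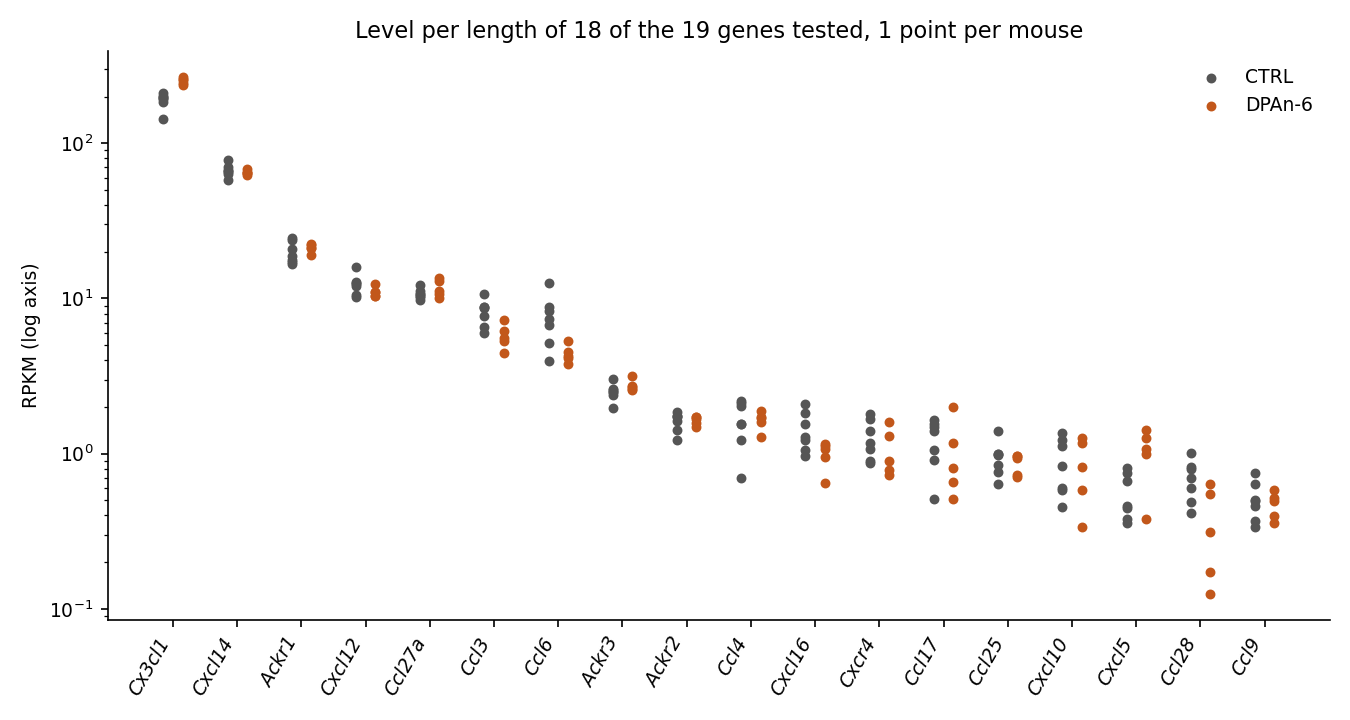
RPKM on a log axis of 18 of the 19 genes in each mouse, ordered by the median over the 12 mice; gray points are the 7 CTRL and orange points the 5 DPAn-6 mice. Cx3cl1 lies highest at a median of 206 RPKM, and Ccl9 lowest at 0.497 RPKM.

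Of the 39 genes that did not pass the filter, 17 had 10 counts or more. The lowest of the genes with 10 counts or more were Ccl19 with 16 and Cxcl1 with 17 counts, and the highest below that were Ccl11 and Ccl7 with 9 counts each. The genes without a count in any mouse were Ccl1, Ccl21b, Ccl26, Ccl27b, Ccr4, Cxcl15 and Cxcl3, where 3 counts over all libraries, the limit that a count of 0 allows, would be 0.0137 CPM. Ccl21b and Ccl27b have near-identical copies, so their reads could have been left uncounted or counted elsewhere. Without the filter, edgeR tested 51 of the 58 genes among 30214. At an adjusted p below 0.05 it called 2 of them, Cx3cl1 and Cxcl13, beside 0.692% of all genes, and 11 had an unadjusted p below 0.05, beside 10.5%. Of these, 9 had lower means in DPAn-6 mice (6.43% of all genes) and 2 higher ones (4.05%). Of the 32 genes that only this fit tested, 4 had an unadjusted p below 0.05, namely Cxcl13, Ccr1, Ccl12 and Ccr7, beside 6.73% of all genes that failed the filter. They are named because of these values.

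Cxcl13, known for attracting B cells through CXCR5, had 12, 1, 10, 36, 15, 10 and 3 counts in CTRL replicates 1 to 7 and 0, 1, 0, 1 and 0 counts in DPAn-6 replicates 1 to 5. CTRL replicate 4 held 36 of the 87 CTRL counts, and CTRL replicate 2, with 1 count, equalled the DPAn-6 replicates 2 and 4 in counts, so the groups overlapped. The rate per library total was 35.1 times as high in CTRL as in DPAn-6, with an exact 95% interval of 9.42 to 294 that covers counting error only. By edgeR's quasi-likelihood test without the filter the adjusted p was 0.00811, and the exact permutation p was 0.00379. Without CTRL replicate 4 the adjusted p was 0.0165. Over the 17 alternatives to this fit it ranged from 2.85e-08 to 0.0801, the latter with Ttr as covariate being the only one above 0.05. The promoter of Cxcl13, the one of these 4 genes with an adjusted p below 0.05, is given from RefSeq (GRCm38.p6, plus strand, chr5:95956689-95956988), with TATAAA in capitals 46 bases before the start site.
Cxcl13: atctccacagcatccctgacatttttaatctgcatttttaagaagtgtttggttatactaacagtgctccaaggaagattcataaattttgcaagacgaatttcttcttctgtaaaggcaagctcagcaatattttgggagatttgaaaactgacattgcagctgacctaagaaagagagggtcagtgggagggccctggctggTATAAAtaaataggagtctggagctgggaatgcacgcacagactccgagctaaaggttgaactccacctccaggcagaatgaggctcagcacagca
Its receptor gene Cxcr5 had 4 counts in CTRL and 1 in DPAn-6 mice.

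Ccl12, a mouse ligand of CCR2, had 17, 7, 23, 14, 16, 9 and 5 counts in CTRL and 7, 8, 5, 7 and 6 counts in DPAn-6 mice, so that the groups overlapped through CTRL replicates 2 and 7. The rate was 2.22 times as high in CTRL (counting interval 1.48 to 3.42), and the adjusted p by edgeR without the filter was 0.248 (unadjusted p = 0.00785). Ccr1, a receptor of CCL3 and other CC ligands, had 6, 5, 11, 7, 13, 3 and 11 counts in CTRL and 1, 5, 5, 1 and 5 in DPAn-6 mice. Its rate was 2.66 times as high in CTRL (counting interval 1.52 to 4.88), with an adjusted p of 0.223 by edgeR (unadjusted p = 0.00596). Ccr7 had 7 counts over 4 CTRL mice and 0 counts in DPAn-6 mice, with an unadjusted p of 0.0156 by edgeR and 0.127 by DESeq2. The monocyte chemokine Ccl2 had 18 and 8 counts in CTRL and DPAn-6 mice, its receptor Ccr2 33 and 20, and the T cell ligand Ccl5 15 and 17, all with unadjusted p-values of 0.287 or more by edgeR without the filter. At these counts smaller differences were not detectable.

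**Figure D5:**
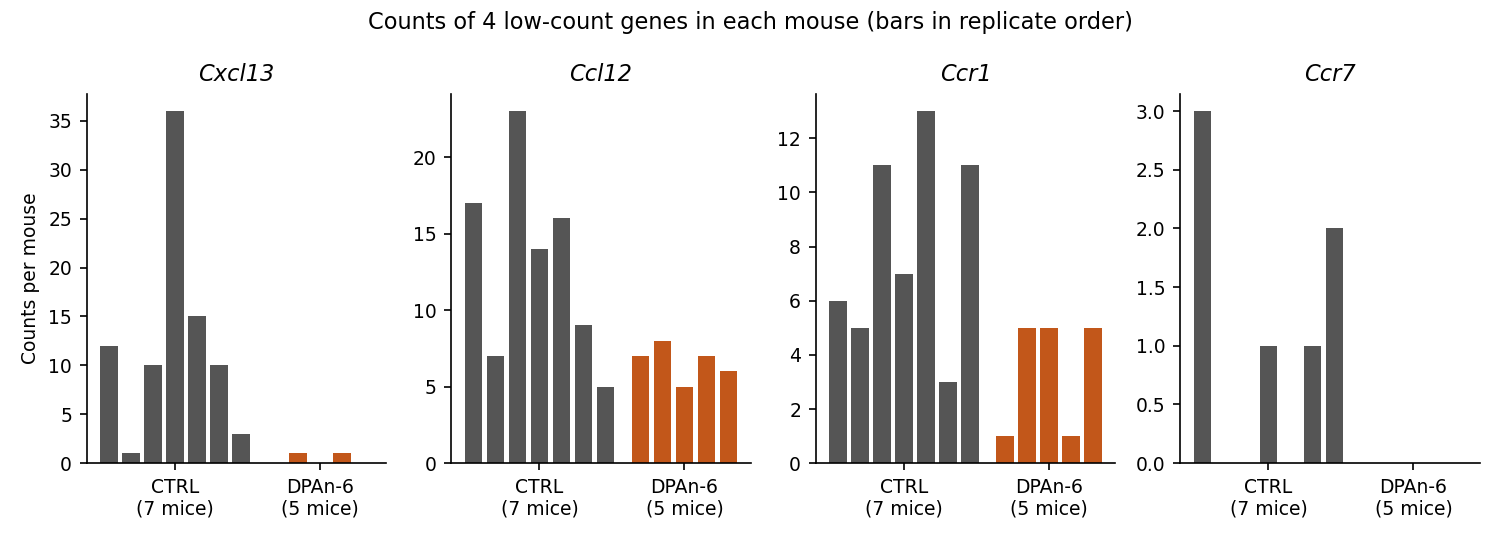
Counts per mouse of Cxcl13, Ccl12, Ccr1 and Ccr7, with 1 bar per mouse in replicate order and each panel on its own axis from 0; gray bars are CTRL and orange bars DPAn-6 mice. Cxcl13 reaches 36 counts in CTRL and at most 1 count in DPAn-6 mice, while Ccl12 and Ccr1 overlap between the groups.

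Many of the cell type markers measured beside these genes also differed between the groups, on lists chosen with earlier results of these data known. Of all genes tested, 9.02% were lower and 5.51% higher at an unadjusted p below 0.05 by edgeR. The log2 fold change was below 0 in 51.3% of them. These shares stand beside the marker counts in this paragraph and the next. In bulk tissue, fewer cells of a type and less RNA per cell cannot be told apart. All 10 homeostatic microglia markers listed had a lower mean in DPAn-6 mice, 9 of them at an unadjusted p below 0.05 by edgeR. Their median log2 fold change was −0.48, and their summed level was 717 to 1040 CPM in CTRL and 529 to 687 CPM in DPAn-6. Cx3cr1, also made mainly by microglia but not on this list, had a log2 fold change of −0.05 (edgeR's adjusted p = 0.866). Of the 10 disease-associated microglia markers, 9 were lower, 8 at an unadjusted p below 0.05 (median −0.71; 464 to 799 CPM in CTRL, 278 to 423 in DPAn-6). All 6 tested markers of border-associated macrophages were lower, 6 at an unadjusted p below 0.05 (median −1.11; 33.4 to 49.98 CPM in CTRL, 23.0 to 32.7 in DPAn-6). Of the 6 monocyte markers listed only 2 passed the filter, and both were lower (median −0.74). The monocyte markers Ly6c2 and Chil3 had only 21 and 14 counts in total over all mice. The means of Ccl6, Ccl3, Cxcl16 and Cxcl13 were lower in the same mice, and the part of these cells in those results was not tested.

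The 6 choroid plexus markers tested were also lower, 6 at an unadjusted p below 0.05 (median −2.56). The summed level of the list was 273 to 2509 CPM in CTRL and 299 to 313 CPM in DPAn-6. In DPAn-6 mice Ttr (0.87 to 3.88 log2 CPM) and Kcnj13 (−1.29 to −0.06) were low. Most of the sum in DPAn-6 mice thus came from other markers of the list, and it does not measure choroid plexus content. The meningeal fibroblast markers were lower for 7 of 7 genes, 5 at an unadjusted p below 0.05 by edgeR (median −0.66). Mural cell markers were lower for 7 of 7, 3 at that p (−0.20), and astrocyte markers for 6 of 7, 3 at that p (−0.15). Red blood cell markers had lower means for 5 of 5 (−0.21), but 0 of them passed that p. Their summed level overlapped, at 8.02 to 22.6 CPM in CTRL and 5.43 to 30.8 CPM in DPAn-6. Inhibitory neuron markers were higher for 6 of 6 genes, 2 at an unadjusted p below 0.05 (median 0.21). Their summed level was 601 to 739 CPM in CTRL and 752 to 883 in DPAn-6. Oligodendrocyte markers were higher for 5 of 6 genes, 4 at an unadjusted p below 0.05 by edgeR (median 0.27). Excitatory neuron markers, 7 tested, had a median of 0.01 with 0 genes at an unadjusted p below 0.05, and endothelial markers a median of 0.01. Of T and NK cell markers 2 of 9 passed the filter (median 0.06), and of B and plasma cell markers 3 of 7 (median −0.11). The part of these differences in the values of Cx3cl1 and the other genes was not tested. Of these markers only Ttr entered a fit, and it marks choroid plexus only. Ttr itself differed between the groups (2.59 to 10.58 log2 CPM in CTRL, 0.87 to 3.88 in DPAn-6), so a fit with it cannot separate it from treatment. With Ttr as covariate the log2 fold change of Cx3cl1 was 0.36 and its adjusted p 0.339 by edgeR. Without the 3 CTRL mice of highest Ttr (replicates 2, 3 and 5), a choice made after the data were seen, these were 0.34 and 0.00329. That fit also leaves out the outlying CTRL replicate 3. Without replicate 3 alone the values were 0.34 and 0.000732 by edgeR, so the 2 choices cannot be told apart here.

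Genes around the chemokine receptors were read from 5 lists with 53 genes, of which 50 passed the filter. By edgeR 7 of the 50 had lower means in DPAn-6 mice at an unadjusted p below 0.05 (9.02% of all genes tested) and 0 had higher ones (5.51%), and 1 had an adjusted p below 0.05 (1.55%). In both directions together 7 of the 50, or 14%, had an unadjusted p below 0.05, near the 14.5% of all genes tested. The median log2 fold change was −0.09, with 34 of the 50 below 0, beside 51.3% of all genes. The 1 gene with an adjusted p below 0.05 was Cmklr1, a receptor of the chemoattractant chemerin (chromosome 5, 113612354 to 113650426). It had 3.32, 3.68 and 4.04 log2 CPM as the lowest, median and highest CTRL values and 2.88, 2.91, 2.43, 2.62 and 2.74 in DPAn-6 mice. The highest DPAn-6 value was thus below the lowest CTRL value, as in 1.49% of all genes tested. The mRNA of Cmklr1 fell by 0.98 in log2 fold change, with a standard error of 0.12 (adjusted p = 0.00193 by edgeR's quasi-likelihood test; exact permutation p = 0.00126), and the adjusted p was at most 0.0405 in the 25 alternatives.

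Of the 18 receptor effectors in leukocytes, 4 were lower at an unadjusted p below 0.05 (9.02% of all genes tested) and 0 were higher (5.51%). They included Dock2, an activator of RAC in leukocytes (−0.50, standard error 0.13, edgeR's adjusted p = 0.0697), and Pik3cg, the catalytic subunit of PI3Kγ (−0.57, standard error 0.15, adjusted p = 0.0699 by edgeR). The RAC activator Tiam1 had a log2 fold change of −0.27 (standard error 0.07, adjusted p = 0.0711 by edgeR). Its groups did not overlap, as in 1.49% of all genes tested with DPAn-6 lower. Of the 13 G proteins, receptor kinases, arrestins and RGS proteins, 2 were lower at an unadjusted p below 0.05, beside the same 9.02% of all genes. Of the 5 proteases that cut chemokines, among them Adam10 and Adam17, and of the 10 transcription factors that induce chemokine genes, 0 passed in either direction, with medians of −0.14 and −0.06. Of the chemokine genes outside the name rule, 4 of 7 passed the filter, and the platelet chemokine Pf4, which did not, had 73 counts in CTRL and 24 in DPAn-6 mice.

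The groups held mice of 2 ages, so the difference between the effects of DPAn-6 at 14 and at 12 months was also tested. At an unadjusted p below 0.05, 1 of the 19 genes passed, Cxcl10, beside 4.26% of all genes. At 12 months its CTRL values were 1.35 and 1.47 log2 CPM and its DPAn-6 values −0.36 and 0.43. At 14 months its CTRL values were 0.46, 1.63, 0.43, 0.07 and 0.94 log2 CPM and its DPAn-6 values 1.51, 0.91 and 1.41 log2 CPM. The difference of the effects was 1.85 (standard error 0.57, unadjusted p = 0.00669, adjusted p = 0.905 by edgeR), and 0 of the 19 had an adjusted p below 0.05, beside 0.00637% of all genes. For age itself, 0 of the 19 genes had an unadjusted p below 0.05 by edgeR, beside 1.78% of all genes.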

How the data were processed

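Cortex RNA-Seq libraries of 12 E4FAD mice were compared, 7 CTRL and 5 DPAn-6, with 1 library per mouse and groups and ages taken from the sample labels. The authors selected poly(A) mRNA from total RNA with a KAPA kit, mapped the reads with STAR (2.5.3a in the submitters' processing notes) against GRCm38 (mm10) and deposited STAR's gene counts as a single table without normalization. How strand was handled is not given in the sources used here. Positions, symbols and exon lengths are from GENCODE M21, in which 50339 of 50563 identifiers were matched, and promoter sequences and motif shares are from RefSeq windows of GRCm38.p6.

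The deposited counts went into edgeR 4.0.16 (R 4.3.3; TMM, filterByExpr by group, glmQLFit, glmQLFTest, no covariate) over 15688 genes, with Benjamini-Hochberg adjustment over all of them. The standard error is the log2 fold change divided by the root of the F statistic, and intervals use t on 10 residual degrees of freedom. Log2 CPM is the log2 of count plus 0.5, scaled to the total count on genes, and RPKM divides by union exon length. Single genes also had a two-sided exact permutation test on mean log2 CPM, over all 792 splits of the mice. Each mouse is 1 replicate. Counting intervals are exact at 95% and cover counting error only. The genes, the lists of pathway and cell type genes and the tests were chosen with earlier results of these data known. Values in every mouse were given for genes with an unadjusted p below 0.05, for Cx3cl1, for ligand and receptor pairs that passed the filter and for the 5 genes of highest level per length, and of the pathway genes for Cx3cr1 and those past an adjusted p of 0.05. The alternatives were limma-voom 3.58.1, which the study names, with and without sample weights, DESeq2 1.42.0, no TMM factors, DESeq2 size factors in edgeR, no filter, a minimum of 1 CPM in 5 mice, a covariate for age, Xist or Ttr, the 14-month mice alone, a replicate block, and leaving out each mouse once. Leaving out the 3 CTRL mice of highest Ttr and fits without a filter joined to another choice were added after the data were seen. In 5 simulated data sets of CTRL against DPAn-6 with 15559 genes on average and 200 genes changed by 1 on the log2 scale, edgeR recovered 89.8% of the changed genes and 5.33% of its calls were false. All libraries entered the reported fit. Of the 19 genes that passed the filter, 1 enters the counts, medians and fits but is not reported here by its own values, so 18 are plotted. Tables and plots were made in Python 3.11.15 with pandas 2.3.3, numpy 2.4.6, scipy 1.17.1 and matplotlib 3.10.9.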

Additional observations from a re-analysis of the deposited data

Results flagged for a closer look

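Of the 38 groups of values checked, 1 for each of the 19 genes in CTRL and in DPAn-6, 3 held a mouse far from the others of its group, where chance flags about 1 in 20 groups, or 1.90 of 38. Cx3cl1 in CTRL replicate 3 was 9.13 log2 CPM, below the next lowest CTRL mouse at 9.51. Ackr3 in DPAn-6 replicate 1 was 3.41 log2 CPM, above the next at 3.19. Cxcl5 in DPAn-6 replicate 3 was −0.46 log2 CPM, below the next at 0.91. What sets these mice apart was not tested. CTRL replicate 3 had the highest value of all mice for 6 of the 19 genes (among them Ccl25, Ccl3, Ccl4, Ccl9 and Cxcl10) and the lowest for 3 (Ackr1, Ccl17 and Cx3cl1), and DPAn-6 replicate 3 had the lowest for 5 (among them Ccl28, Ccl6, Cxcl10 and Cxcl16).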

How the results depend on the processing

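The count of chemokine and receptor genes with an adjusted p below 0.05, 1 as reported, was 3 by limma-voom with sample weights (Cx3cl1, Ccl6 and Ccl28), 3 by DESeq2 (Cx3cl1, Ccl6 and Ccl3), 2 with no filter on low counts (Cx3cl1 and Cxcl13), 0 with a Ttr covariate, 0 among 14-month mice alone, 0 to 2 when single mice were left out, and 2 without the 3 CTRL mice of highest Ttr, a setting chosen after the data were seen. The adjusted call of Cx3cl1 was lost in 6 of 25 alternatives, with adjusted p-values from 0.000247 to 0.339 and log2 fold changes from 0.34 to 0.45 over all of them. The count at an unadjusted p below 0.05, 7 as reported, was 11 with no filter, where 51 genes were tested. It was 5 to 9 in the other alternatives, where 18 to 21 of the genes were tested. The shares of all genes differed between these settings. With Ttr as covariate it was 5 of 19, beside 6.39% of all genes, and with sample weights 8 of 19, beside 24.7%. It was 9 of 21 without DPAn-6 replicate 2 or 4, beside 13.3% and 12.2%. Without the 3 CTRL mice of highest Ttr it was 9 of 19, beside 17.7%. Ccl6 and Ccl28 kept their unadjusted call in 25 of 25, Ccl3 in 24, and Cxcl5 and Cxcl16 in 23. The count of pathway genes at an unadjusted p below 0.05, 7 as reported, was 13 by limma-voom with sample weights, 6 to 11 when single mice were left out (11 without DPAn-6 replicate 5) and 11 without the 3 CTRL mice of highest Ttr. The calls over all genes moved too. The share of all genes with an adjusted p below 0.05, 1.55% as reported, was 8.08% by limma-voom with sample weights, 4.44% by DESeq2, 0.108% with Ttr as covariate, 0.0564% among 14-month mice alone, 6.10% without CTRL replicate 3 and 3.47% without the 3 CTRL mice of highest Ttr. At an unadjusted p below 0.05 it was 24.7% with sample weights and 17.7% without those 3 mice, against 14.5% as reported. With sample weights, 13 of the 50 pathway genes is thus near the share of all genes in that setting. The cause of these shifts was not tested.

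Some log2 fold changes near 0 changed sign. That of Cxcl14 was 0.0028 with Ttr as covariate, that of Ackr1 was −0.027 among 14-month mice alone, and that of Cx3cr1 was 0.060 among 14-month mice alone and between −0.11 and 0.0037 when single mice were left out, the latter without DPAn-6 replicate 3. That of Ccl4, −0.00 as reported, was 0.077 by limma-voom, 0.14 with sample weights, 0.022 without TMM, 0.015 with no filter, 0.0029 at 1 CPM in 5 mice, 0.0042 with a covariate for Xist, 0.17 among 14-month mice alone, and −0.14 to 0.088 when single mice were left out.

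Deviations from the group means in same-numbered mice of the 2 groups had correlations of −0.12 to 0.23 over genes in 5 pairs. Differently numbered mice were not compared, so these values cannot decide whether the replicate numbers pair the mice. With the replicate number as a block, 0 of the 19 genes had an adjusted p below 0.05 by edgeR, beside 0.504% of all genes tested. In that fit Cx3cl1 had an adjusted p of 0.0897 at a log2 fold change of 0.45. Cxcl5 had an unadjusted p of 0.0651 there, and the log2 fold change of Ccl4 was 0.058.

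With 7 and 5 mice and under 100 counts per mouse for many of these genes, small differences were not detectable, and 39 of the 58 genes could not be tested by the reported fit. The mouse with most counts, DPAn-6 replicate 5, had 26520251.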
